A study of Homo sapiens with 15 samples.

Results

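The genes described here are 10 components and targets of NF-kB signalling, NFKB1, NFKB2, RELB, IRF1, ICAM1, CXCL8, LIF, CCL20, PTGS2 and TRAF1, in ZR-75-1 cells, a luminal human breast cancer cell line. They were chosen by gene symbol, with earlier results of these data known. Each of the 10 matched 1 probe set, of 14841 probe sets paired with a gene symbol and 34878 on the arrays. All cells were grown in RPMI-1640 with 10% FBS and then received 10 nM MPA (medroxyprogesterone acetate, a synthetic progestin), 10 nM PROG (progesterone), 10 nM DHT (dihydrotestosterone, an androgen), 10 nM DEX (dexamethasone, a synthetic glucocorticoid), or vehicle, 0.1% ethanol, for 6 h. The labels give the abbreviations, and the full names are their usual reading. Each of the 5 groups had 3 Affymetrix arrays, 15 in all, so the number of arrays limits the precision. All come from 1 cell line, and the vehicle arrays are also labelled untreated, and what the compounds were dissolved in is not given. No inflammatory stimulus is named in the labels. Nothing in the labels says that the 3 arrays of a group are separate cultures, and p-values therefore reflect variation between arrays that may be technical.

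NF-kB is a family of dimeric transcription factors held inactive in the cytoplasm by inhibitor proteins until a kinase complex marks these for destruction. In the canonical arm, p50 from NFKB1 pairs with RELA or REL, and in the alternative arm p52 from NFKB2 pairs with RELB. The dimers bind kappaB sites in genes for chemokines, cytokines, adhesion molecules and the enzyme of inducible prostaglandin synthesis. Ligand-bound glucocorticoid and progesterone receptors are known to restrain many of these genes in stimulated cells.

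Of the 10 genes, 5 were above the array medians in all 5 groups and 4 were below them in all 5. By their mean over the arrays, 64.1% of all named probe sets were above. Among the 40 differences from vehicle, NFKB1 fell with MPA and LIF rose with MPA, and no other member passed the test with any compound. That is 5% of the 40, where 2.69% of the differences of all named probe sets from vehicle passed it. NFKB1 fell to 0.853 of the vehicle level (95% interval 0.796 to 0.913) and LIF rose 1.28-fold (1.11 to 1.48, n = 3 arrays a group). The LIF call was lost when any 1 of 11 arrays was left out, while that of NFKB1 held without each of the 15 arrays.

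The sequences before the start sites are shown for NFKB1, which fell, and for ICAM1, CXCL8 and PTGS2, textbook NF-kB targets whose levels stayed below the array medians. RefSeq start-site windows on GRCh38.p14, from 250 bases before to 50 bases after each start, were found for 8 of the 10 members by gene ID, 13 windows in all. The 250 bases before the start are printed 5′ to 3′ on the strand of the gene. They lie at chr4:102501109-102501358 (plus strand) for NFKB1, at chr19:10270870-10271119 (plus) for ICAM1, at chr4:73740319-73740568 (plus) for CXCL8 and at chr1:186680424-186680673 (minus) for PTGS2. Capitals mark matches on either strand to GGGA, any 4 bases and CC, or to GGANNTTCC, which are spellings of the kappaB site chosen after these sequences were seen.
NFKB1: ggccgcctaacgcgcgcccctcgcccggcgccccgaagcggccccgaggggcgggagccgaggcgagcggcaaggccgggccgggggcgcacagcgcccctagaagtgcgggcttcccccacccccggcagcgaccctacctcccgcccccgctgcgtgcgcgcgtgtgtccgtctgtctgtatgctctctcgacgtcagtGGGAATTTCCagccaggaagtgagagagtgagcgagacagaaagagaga
ICAM1: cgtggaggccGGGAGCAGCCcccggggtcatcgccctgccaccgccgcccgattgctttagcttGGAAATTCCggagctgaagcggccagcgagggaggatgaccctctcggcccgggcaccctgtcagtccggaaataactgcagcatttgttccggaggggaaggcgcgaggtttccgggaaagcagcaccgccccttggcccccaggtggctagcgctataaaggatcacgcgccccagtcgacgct
CXCL8: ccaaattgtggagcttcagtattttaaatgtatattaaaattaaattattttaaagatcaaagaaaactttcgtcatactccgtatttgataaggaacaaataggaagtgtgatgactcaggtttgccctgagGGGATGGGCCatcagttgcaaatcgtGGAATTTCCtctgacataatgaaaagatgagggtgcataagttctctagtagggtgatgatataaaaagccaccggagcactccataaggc
PTGS2: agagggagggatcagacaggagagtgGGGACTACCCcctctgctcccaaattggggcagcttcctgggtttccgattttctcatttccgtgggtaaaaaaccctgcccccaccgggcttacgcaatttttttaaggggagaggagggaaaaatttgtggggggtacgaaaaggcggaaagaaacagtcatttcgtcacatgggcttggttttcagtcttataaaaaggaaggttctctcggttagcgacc

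The first spelling occurs in 25.6% and the second in 4.56% of all 35116 windows of this length, and the same letters can match both. GGANNTTCC stood in a window of NFKB1, NFKB2, ICAM1, CXCL8 and TRAF1. The NFKB1 match GGGAATTTCC begins 49 bases before the start, that of CXCL8, GGAATTTCC, 91 bases before, and that of ICAM1, GGAAATTCC, 186 bases before. NFKB1 has another window, not printed, with its own start. There the kappaB match is GGGAGAGCCC, 193 bases before that start, and GGANNTTCC is absent. In PTGS2 the marked letters are GGGACTACCC. The element of steroid receptors spelled AGAACA, any 3 bases and then TGTNCT, searched on both strands, was in none of the 13 windows and in 0.0456% of all windows. For so rare a spelling, absence from 13 windows tells little. The shorter AGAACA, on either strand, stood in windows of TRAF1 and of no other member, and in 14.8% of all windows. TATAAA on the sense strand, found in 7.33% of all windows, stood before ICAM1, CXCL8, CCL20 and PTGS2. These matches describe the letters in the windows and do not show that any factor binds there.

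The cells and arrays were checked before the genes. All 9 luminal markers with a probe set, such as KRT8, KRT18, GATA3 and ESR1, were above the array medians. None of 3 basal and none of 2 endothelial markers was, while 1 of 3 fibroblast markers (LUM) and 3 of 5 white blood cell markers (LYZ, CD68 and CD8A, not CD14 and CSF1R) were. The mean log2 level of the white blood cell list was 4.69 with MPA, 4.66 with PROG, 4.65 with DHT, 4.68 with DEX and 4.63 with vehicle. The array medians were 3.69 to 3.73 on the log2 scale, and across probe sets 2 arrays from the same group had a Pearson r of 0.997 to 0.998. The part of the other cells' markers in the results was not tested.

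**Figure D1:**
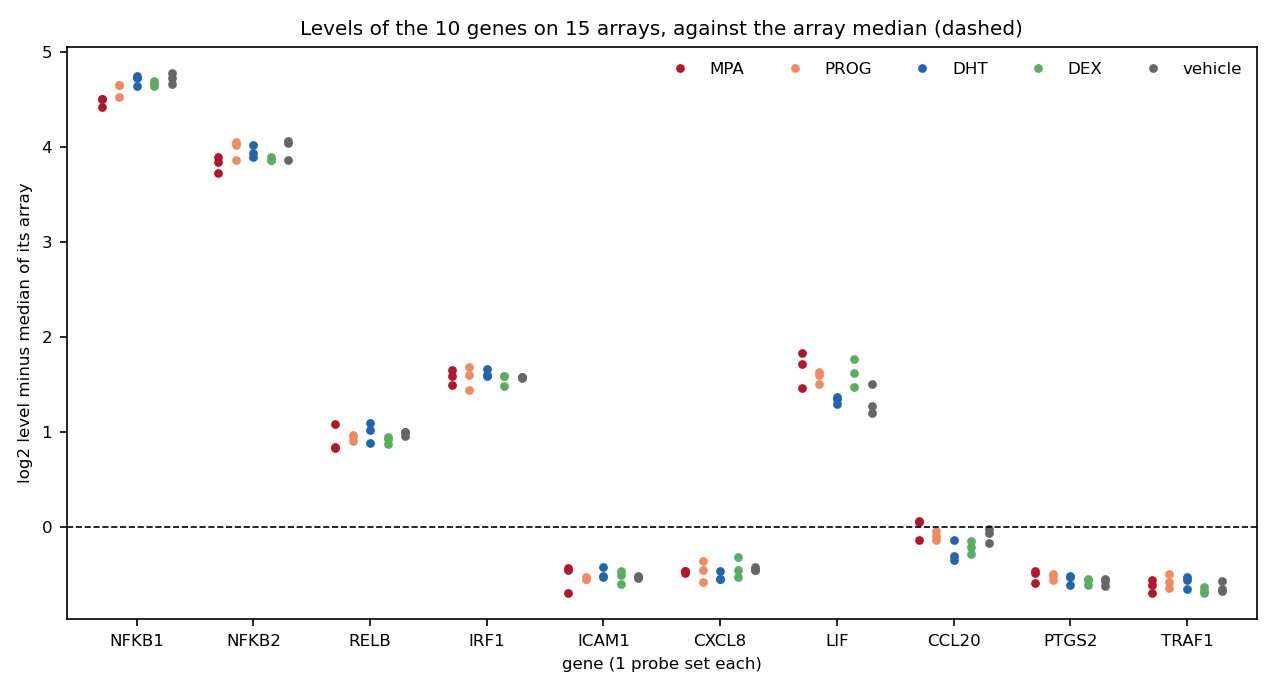
Log2 level minus the median of its own array (vertical axis) for the 10 genes (horizontal axis), 1 point per array, coloured by group, with the array median dashed. NFKB1, NFKB2, RELB, IRF1 and LIF lie above the dashed line on all 15 arrays, and ICAM1, CXCL8, PTGS2 and TRAF1 lie below it on all 15.

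A level is given as the deposited log2 value and as its distance from the median of all probe sets on that array, since levels of different probe sets cannot be set against each other. NFKB1 stood 4.42 to 4.78 above the array median on the 15 arrays, higher than 87.4% to 89.4% of the probe sets of its array. NFKB2 stood 3.73 to 4.06 above, IRF1 1.44 to 1.68, LIF 1.20 to 1.83 and RELB 0.83 to 1.09. The remaining genes had lower signals. ICAM1 stood 0.42 to 0.70 below the median, CXCL8 0.32 to 0.58 below, PTGS2 0.47 to 0.63 below and TRAF1 0.50 to 0.70 below. CCL20 crossed it, from 0.35 below to 0.06 above, with 2 of 15 arrays above, and was higher than 35.0% to 51.6% of the probe sets of its array. Of all named probe sets 64.1% had a mean above 3.70, the median of the array medians. A group mean under that value is called dim here, and for a dim probe set neither a level nor the absence of a change can be read.

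Each change is given on the log2 scale with its standard error from limma, fitted to all 15 arrays, with n = 3 arrays a group. A difference is called at a Benjamini-Hochberg adjusted p under 0.05 over the 14841 named probe sets. Against vehicle 2 of 10 members were called with MPA, 1 higher and 1 lower, where 5.93% of all named probe sets were called, 4.11% higher and 1.82% lower. With PROG, DHT and DEX limma called none of the 10, where it called 2.82%, 0.889% and 1.11% of all. At an unadjusted p under 0.05 the numbers were 3 of 10 with MPA, 2 with PROG, 1 with DHT and 1 with DEX, beside 17.4%, 11.6%, 9.9% and 10.4% of all named probe sets. The median change of the 10 was 0.01 with MPA, -0.01 with PROG, 0.01 with DHT and -0.03 with DEX, and over all named probe sets it was 0.00, 0.00, 0.00 and 0.01. Of the 40 differences, 31 were smaller than 0.1, and each of the 40 intervals (95%, not adjusted for their number) stayed inside a 1.5-fold change in either direction. For the dim genes such intervals bound the array signal and not the RNA. The 4 comparisons share the same 3 vehicle arrays.

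**Figure D2:**
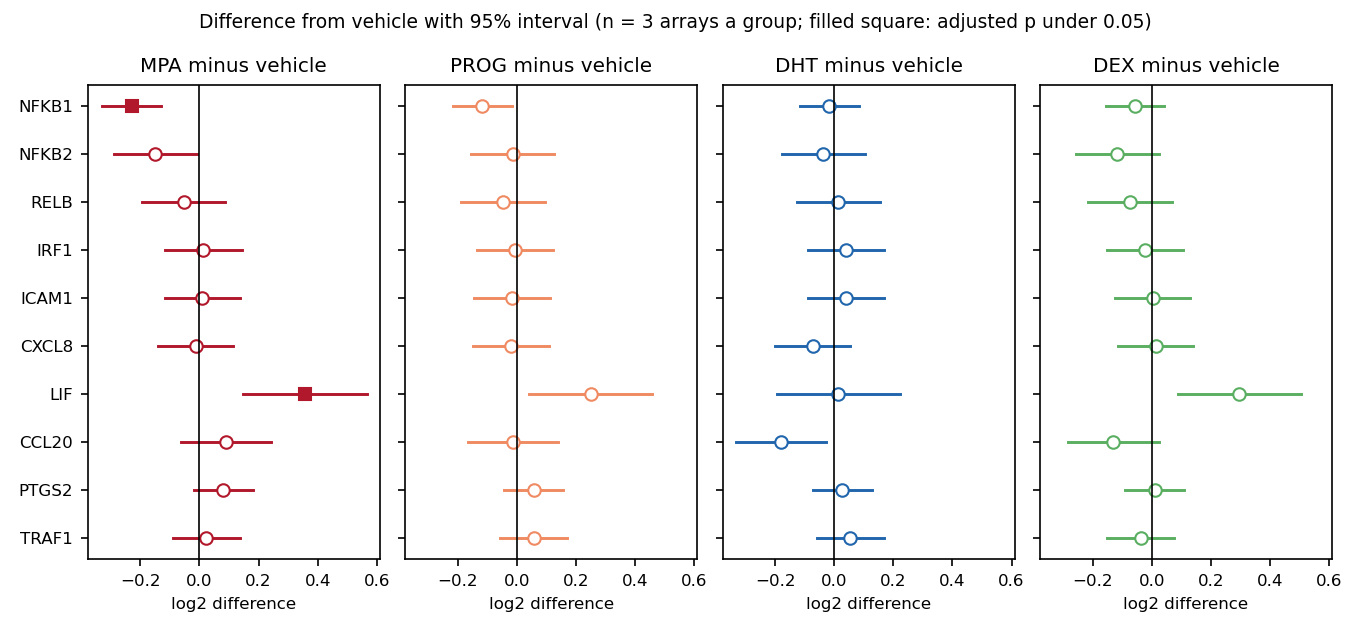
Log2 difference from vehicle (horizontal axis) for each of the 10 genes (rows) with MPA, PROG, DHT and DEX (panels). Points are limma differences, lines their 95% intervals, n = 3 arrays a group, and filled squares mark an adjusted p under 0.05. The filled squares are NFKB1 (-0.23) and LIF (0.36), both in the MPA panel.

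NFKB1 encodes p105, the precursor of the DNA-binding subunit p50. Its log2 levels were 8.15, 8.21 and 8.21 with MPA, 8.34, 8.34 and 8.23 with PROG, 8.34, 8.44 and 8.43 with DHT and 8.36, 8.39 and 8.34 with DEX, against 8.42, 8.37 and 8.47 with vehicle. The 3 MPA arrays were the lowest of the 15, with no overlap with any other group. MPA arrays did not overlap those of PROG, DHT and DEX for 11.7%, 16.3% and 17.6% of all named probe sets. The share with 1 group apart from all the others at once was not counted. Against vehicle, 1 of 10 members, NFKB1, had no overlap of arrays with MPA, where 19.1% of all named probe sets had none. The change with MPA was -0.23 ± 0.046, adjusted p = 0.00646. With PROG the 3 arrays also lay below those of vehicle, at -0.12 ± 0.046, but the difference was not called (adjusted p = 0.297). Non-overlapping arrays were seen for 15.5% of all named probe sets in that comparison. The values with DHT and DEX overlapped those with vehicle, at -0.02 ± 0.046 (adjusted p = 0.950) and -0.06 ± 0.046 (adjusted p = 0.733). NFKB1 was the member with a moderated F test past the threshold over all 5 groups (adjusted p = 0.0313), beside 5.13% of all named probe sets. That call was lost without any 1 of vehicle 1, MPA 1, MPA 2, DHT 2, DHT 3, DEX 1 and DEX 2, and when only the 2 groups entered the fit the MPA difference had an adjusted p of 0.0528.

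NFKB2 encodes p100, the precursor of p52. Its levels were 7.46, 7.54 and 7.60 with MPA, 7.55, 7.74 and 7.72 with PROG, 7.72, 7.63 and 7.59 with DHT and 7.56, 7.58 and 7.56 with DEX, against 7.55, 7.75 and 7.75 with vehicle. Vehicle 1 lay within the range of the MPA arrays, so the groups overlapped. The difference with MPA was -0.15 ± 0.065 (adjusted p = 0.248) and with DEX -0.12 ± 0.065 (adjusted p = 0.592), and neither passed the test. RELB, the partner of p52, had 4.57, 4.78 and 4.53 with MPA, 4.64, 4.59 and 4.67 with PROG, 4.58, 4.71 and 4.79 with DHT and 4.64, 4.56 and 4.62 with DEX, against 4.64, 4.71 and 4.69 with vehicle. MPA 2 was among the highest arrays and the other MPA arrays among the lowest. Its 4 differences from vehicle ran from -0.07 to 0.01, with 95% intervals inside -0.21 to 0.15 and adjusted p of 0.744 to 0.972.

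IRF1, a transcription factor induced by interferon gamma and by NF-kB, had 5.22, 5.29 and 5.35 with MPA, 5.29, 5.13 and 5.38 with PROG, 5.29, 5.29 and 5.36 with DHT and 5.29, 5.17 and 5.29 with DEX, against 5.26, 5.29 and 5.27 with vehicle. All groups overlapped. Its differences from vehicle were -0.02 to 0.04, with intervals inside -0.15 to 0.17 and adjusted p of 0.893 to 0.983. Among the 5 members above the array medians, IRF1 had the narrowest span of group means, 0.063, against 0.087 for RELB, 0.15 for NFKB2, 0.23 for NFKB1 and 0.36 for LIF.

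LIF encodes leukemia inhibitory factor, a secreted cytokine of the IL-6 family that signals through LIFR and IL6ST. Its levels were 5.44, 5.53 and 5.16 with MPA, 5.19, 5.32 and 5.30 with PROG, 4.99, 5.04 and 5.07 with DHT and 5.17, 5.46 and 5.32 with DEX, against 4.96, 4.91 and 5.19 with vehicle. MPA 3 was below vehicle 3, so these groups overlapped by 1 array each, while all arrays with DHT were below all arrays with MPA, PROG and DEX. The change with MPA was 0.36 ± 0.097 (adjusted p = 0.0454). It was 0.25 ± 0.097 with PROG (adjusted p = 0.283), 0.30 ± 0.097 with DEX (adjusted p = 0.246) and 0.01 ± 0.097 with DHT (adjusted p = 0.978). The MPA call ended without any 1 of vehicle 1, vehicle 2, MPA 1, MPA 2, PROG 1, PROG 2, PROG 3, DHT 1, DHT 2, DHT 3 and DEX 3, with an adjusted p of 0.0550 to 0.164. The root mean square of the SDs within groups was 0.13 for LIF, the widest of the 10 genes, against 0.048 for NFKB1.

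CCL20, the chemokine that binds CCR6, had 3.79, 3.75 and 3.56 with MPA, 3.55, 3.59 and 3.65 with PROG, 3.35, 3.38 and 3.56 with DHT and 3.49, 3.54 and 3.41 with DEX, against 3.62, 3.69 and 3.52 with vehicle. Its mean with MPA was 3.70, at the median of the array medians, and the means of the other groups, 3.60 with PROG, 3.43 with DHT, 3.48 with DEX and 3.61 with vehicle, were dim. The differences from vehicle were 0.09 ± 0.071 with MPA (adjusted p = 0.577), -0.01 ± 0.071 with PROG (adjusted p = 0.974), -0.18 ± 0.071 with DHT (adjusted p = 0.401) and -0.13 ± 0.071 with DEX (adjusted p = 0.580). None passed the test.

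**Figure D3:**
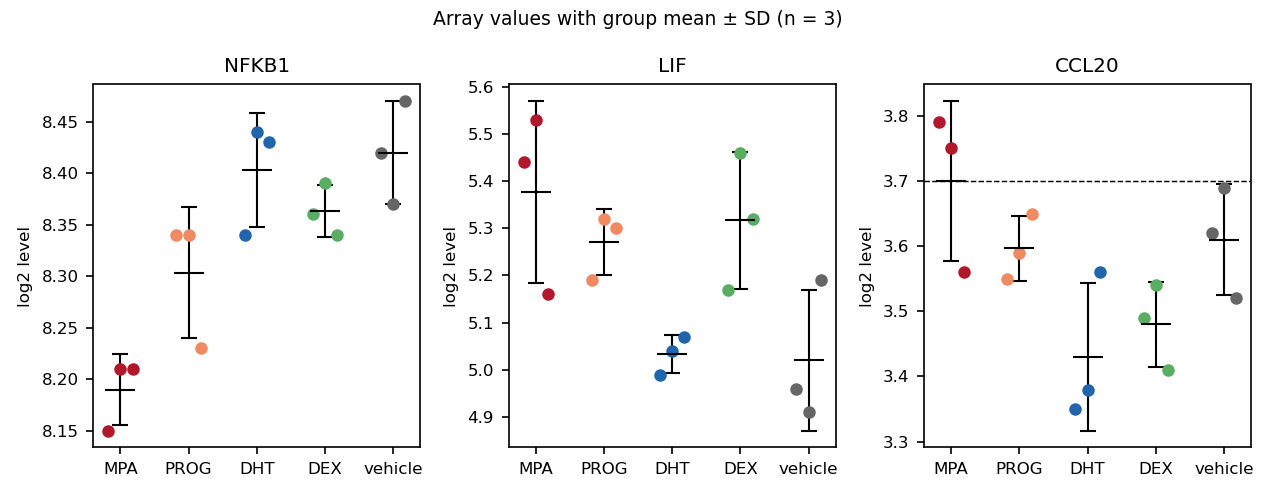
Log2 levels (vertical axes) of NFKB1, LIF and CCL20 by group (horizontal axes), 1 point per array, with the mean ± SD of 3 arrays in black. The vertical axes do not start at 0 and differ between the panels, and the dashed line for CCL20 is 3.70, the median of the array medians. The 3 NFKB1 points with MPA, 8.15 to 8.21, lie below all others, the LIF points with DHT, 4.99 to 5.07, lie below those with MPA, PROG and DEX, and the CCL20 points with MPA and DHT meet at 3.56.

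The other 4 members were dim in all 5 groups. CXCL8, the neutrophil chemokine interleukin-8, ran from 3.11 to 3.37 over the 15 arrays, with means of 3.23 ± 0.006 with MPA, 3.23 ± 0.12 with PROG, 3.17 ± 0.049 with DHT and 3.26 ± 0.10 with DEX, against 3.25 ± 0.015 with vehicle (SD, n = 3). ICAM1, the adhesion molecule that white blood cells grip through beta-2 integrins, ran from 3.03 to 3.28, with means of 3.18 ± 0.13, 3.15 ± 0.01, 3.21 ± 0.064 and 3.17 ± 0.072 with MPA, PROG, DHT and DEX, against 3.17 ± 0.015 with vehicle. The differences of both genes from vehicle lay between -0.07 and 0.04, and all their group means were dim. PTGS2, the inducible cyclooxygenase COX-2, ran from 3.06 to 3.24, and its means were 3.19 ± 0.072, 3.17 ± 0.026, 3.14 ± 0.052 and 3.12 ± 0.029 with MPA, PROG, DHT and DEX, against 3.11 ± 0.046 with vehicle. TRAF1, an adaptor of tumour necrosis factor receptors, ran from 3.00 to 3.19, and its means were 3.08 ± 0.074, 3.12 ± 0.070, 3.11 ± 0.064 and 3.02 ± 0.032, against 3.06 ± 0.052 with vehicle. The smallest adjusted p of a difference from vehicle was 0.753 for CXCL8, 0.891 for ICAM1, 0.410 for PTGS2 and 0.767 for TRAF1. At these signals a change in the RNA of the 4 genes was not detectable and is not excluded.

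The compounds were given at the same dose and time, so each pair was compared directly for all 10 genes, 60 differences in 6 comparisons. Limma called 1, NFKB1 with MPA against DHT (-0.21 ± 0.046, adjusted p = 0.0170), among 3.51% of all named probe sets called in that comparison, 0.977% lower. This call was lost without MPA 1, DHT 2 or DHT 3 (adjusted p = 0.0654 to 0.0791). With MPA against DEX, where 4.06% of all were called and 15.3% were at an unadjusted p under 0.05 (2 of 10 members), NFKB1 differed by -0.17 ± 0.046 without passing the test (adjusted p = 0.0528), and it did pass without PROG 3 (adjusted p = 0.0465). MPA and PROG share the progesterone skeleton, to which MPA adds a methyl and an acetoxy group. No member was called between them, with 0.29% of all called, and 1 of 10 members was at an unadjusted p under 0.05, beside 8.52% of all. For NFKB1 this difference was -0.11 ± 0.046 (95% interval -0.21 to -0.01, adjusted p = 0.523), with all 3 MPA arrays below all 3 PROG arrays, a separation seen in 11.7% of all. For LIF it was 0.11 ± 0.097 (-0.10 to 0.32, adjusted p = 0.830), and for CCL20 0.10 ± 0.071 (-0.05 to 0.26, adjusted p = 0.752). Without 1 array these differences ran from 0.03 to 0.215 for LIF and from 0.06 to 0.17 for CCL20, the lowest without MPA 2 and MPA 1 and the highest both without MPA 3, with no call. These intervals do not show that the compounds act alike on these genes.

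LIF differed by 0.34 ± 0.097 between MPA and DHT (adjusted p = 0.0785), by 0.24 ± 0.097 between PROG and DHT (adjusted p = 0.441) and by -0.28 ± 0.097 between DHT and DEX (adjusted p = 0.315). The arrays did not overlap in any of these comparisons, nor did those of 16.3%, 12.8% and 12.8% of all named probe sets. CCL20 was higher in value with MPA than with DHT by 0.27 ± 0.071 (adjusted p = 0.0561) and than with DEX by 0.22 ± 0.071 (adjusted p = 0.124, arrays not overlapping, as for 17.6% of all), neither of which passed the test with all arrays. Without MPA 3 these differences of CCL20 and that of LIF between MPA and DHT passed it (adjusted p = 0.0176, 0.0408 and 0.0148), and CCL20 between MPA and DHT also did without DHT 3 (adjusted p = 0.0210). PROG and DEX, and DHT and DEX, gave no call among the members, where 1.42% and 0.654% of all were called, with 0 and 1 of 10 members at an unadjusted p under 0.05, beside 9.89% and 9.57% of all. Between PROG and DHT, 1.71% of all and no member were called, with 3 of 10 at an unadjusted p under 0.05, beside 9.33% of all.

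The order of the NFKB1 group means was MPA (8.19), PROG (8.30), DEX (8.36), DHT (8.40) and vehicle (8.42), and no neighbours in that order differed past the threshold. For LIF the order from the highest was MPA (5.38), DEX (5.32), PROG (5.27), DHT (5.03) and vehicle (5.02), again with no called difference between neighbours. The 45 Pearson correlations between pairs of members ran from -0.60 (RELB and PTGS2) to 0.46 (RELB and TRAF1) over 15 arrays, which share their groups and their normalization, and are given as a description. NFKB1 had r = -0.56 with CCL20, -0.55 with LIF, -0.53 with PTGS2 and 0.35 with NFKB2. The genes with the pattern most like NFKB1 among 9017 other named probe sets, those with a mean above 3.70 apart from small RNAs and pseudogenes, were USP3, a ubiquitin-specific protease (r = 0.950), PTGFRN, a regulator of the prostaglandin F2 receptor (r = 0.897), and the long non-coding RNA MIR181A1HG (r = 0.894), over the same 15 arrays. USP3 averaged 9.12 with MPA, 9.23 with PROG, 9.30 with DHT and 9.28 with DEX, against 9.33 with vehicle.

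Around the members, 9 lists of other genes of the pathway were read, with 109 of 179 genes measured. Of these, limma called 21 with MPA (17 higher, 4 lower), 14 with PROG (11 higher, 3 lower), 1 with DHT (higher) and 4 with DEX (all higher), which is 19.3%, 12.8%, 0.917% and 3.67% of the measured genes. The same shares over all named probe sets were 5.93%, 2.82%, 0.889% and 1.11% (higher in 4.11%, 2.43%, 0.775% and 0.957%, lower in 1.82%, 0.391%, 0.115% and 0.148%). Nothing is called particular to these lists from that, since the lists were chosen with earlier results of these data known. The list of steroid-induced inhibitors of inflammation also holds known steroid targets. The number with PROG was 9 without vehicle 2 and 8 without PROG 2, and that with DHT was 2 without vehicle 2 or MPA 2. Of the 40 calls 28 held without each array and 12 did not.

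Upstream of the subunits, 1 of 12 measured receptors and adaptors was called, TLR5, the receptor of bacterial flagellin, which fell with MPA (-0.43 ± 0.066, adjusted p = 7.60e-04) to a mean of 7.69 against 8.11 with vehicle. Over all named probe sets 5.93% were called with MPA (1.82% lower), 2.82% with PROG, 0.889% with DHT and 1.11% with DEX. None of 9 measured kinases and Rel subunits was called with any compound. Their median changes were -0.08 with MPA, -0.02 with PROG, 0.00 with DHT and 0.01 with DEX. Of 9 measured inhibitors of the pathway, 3 rose with MPA and 1 with PROG, where 4.11% and 2.43% of all named probe sets were called higher. None of the 9 was called with DHT or DEX. The median changes of the 9 were 0.09 with MPA, -0.003 with PROG, 0.09 with DHT and 0.03 with DEX. ZC3H12A, the ribonuclease Regnase-1 that degrades cytokine mRNAs, had 7.22, 7.16 and 7.34 with MPA, 6.87, 7.04 and 6.91 with PROG, 6.53, 6.47 and 6.42 with DHT and 6.63, 6.51 and 6.55 with DEX, against 6.37, 6.30 and 6.40 with vehicle. Every treated array was above every vehicle array, with DHT only by 6.42 against 6.40. Arrays did not overlap with vehicle for 19.1% of all named probe sets with MPA, 15.5% with PROG, 12.7% with DHT and 13.6% with DEX. The share with all compounds at once was not counted. ZC3H12A rose by 0.88 ± 0.059 with MPA (adjusted p = 1.77e-07) and by 0.58 ± 0.059 with PROG (adjusted p = 2.61e-05). Its values with DHT, 0.12 ± 0.059 (adjusted p = 0.563), and DEX, 0.21 ± 0.059 (adjusted p = 0.165), were not called, and both MPA and PROG exceeded DHT (0.77 ± 0.059 and 0.47 ± 0.059, adjusted p = 1.59e-06 and 4.51e-04). N4BP1, a regulator of NF-kB signalling, rose with MPA by 0.29 ± 0.060 (adjusted p = 0.00850), and TNIP1, a partner of the inhibitor A20, by 0.21 ± 0.059 (adjusted p = 0.0476), a call lost without any 1 array but MPA 2 and PROG 1 (adjusted p = 0.0521 to 0.181).

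Among 27 other measured NF-kB target genes, 15 of them above the array medians, 1 rose and 1 fell with MPA and with PROG. With DEX 1 rose, and none was called with DHT. The shares called of all named probe sets were 5.93% with MPA, 2.82% with PROG, 0.889% with DHT and 1.11% with DEX. CFLAR, an inhibitor of caspase-8 activation, rose by 0.24 ± 0.046 with MPA (adjusted p = 0.00423). PLK2, a stress-responsive kinase, fell by 0.30 on the log2 scale with MPA (SE 0.056, adjusted p = 0.00402). With PROG, CFLAR (0.20 ± 0.046, adjusted p = 0.0284) and PLK2 (-0.24 ± 0.056, adjusted p = 0.0358) were called, but without any 1 PROG or vehicle array neither was (adjusted p = 0.0653 to 0.105 for CFLAR and 0.0513 to 0.146 for PLK2, which was also lost without DHT 2 or DEX 3). SDC4, a cell surface proteoglycan, was called higher with DEX (0.23 ± 0.047, adjusted p = 0.0310), again lost without any 1 DEX or vehicle array (adjusted p = 0.0522 to 0.129). IER3 has 2 probe sets, and the dimmer one was called higher with DHT (0.26 ± 0.053, adjusted p = 0.0352), while the brighter one, used for the counts, was not (0.13 ± 0.057, adjusted p = 0.476). Of 11 measured partners of IRF1 and interferon targets, 6 of them above the array medians, none was called with any compound. Beside the shares of all named probe sets given above, no call among 11 genes tells little.

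**Figure D4:**
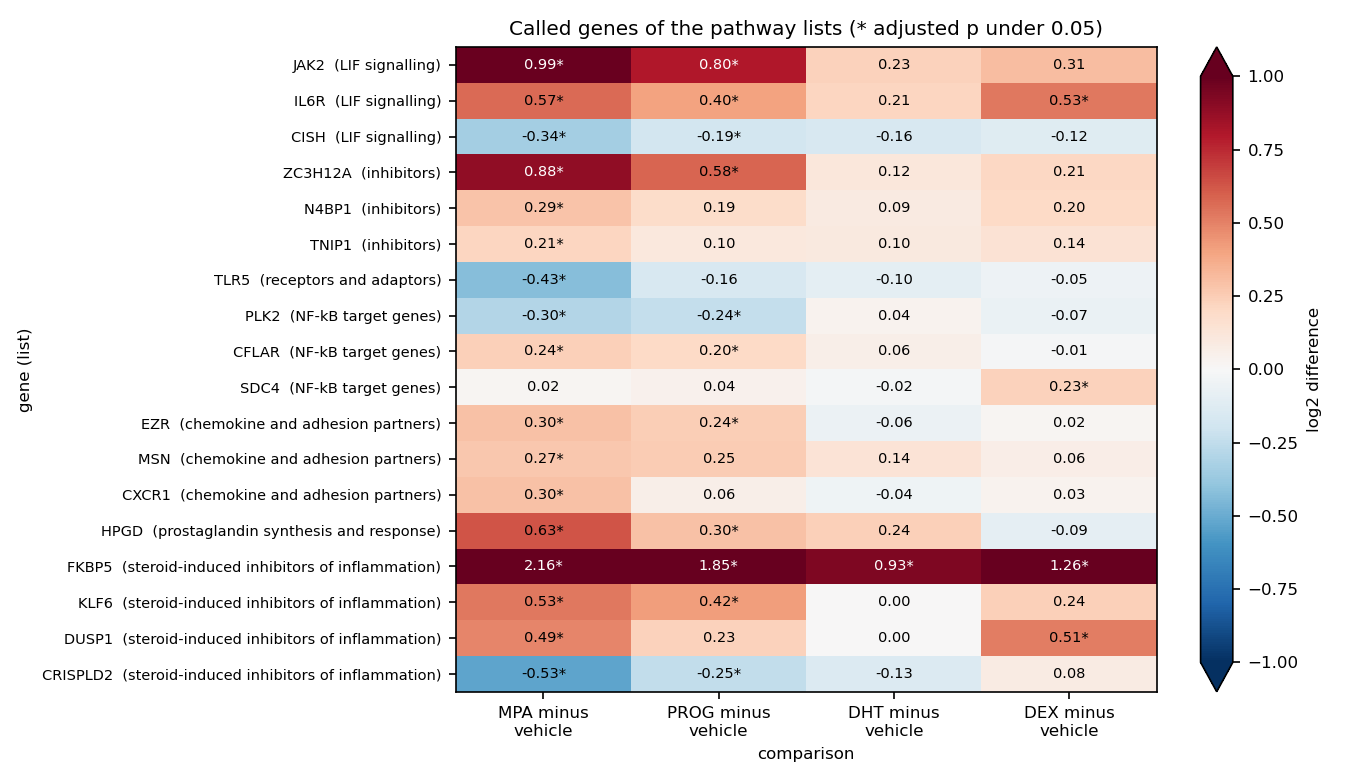
Log2 difference from vehicle with MPA, PROG, DHT and DEX (columns) for the called genes of the pathway lists (rows, up to 4 a list), as colour and number, with an asterisk at an adjusted p under 0.05. The colours end at -1 and 1, and FKBP5 lies beyond 1 with MPA (2.16), PROG (1.85) and DEX (1.26). JAK2 (0.99 with MPA, 0.80 with PROG) and ZC3H12A (0.88 and 0.58) rose with MPA and with PROG, and TLR5 (-0.43) fell with MPA.

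Of 11 measured genes listed for LIF signalling, which include receptors and ligands of related cytokines, 2 rose and 1 fell with MPA and with PROG, and 1 rose with DEX. Of all named probe sets 4.11% were called higher and 1.82% lower with MPA, 2.43% and 0.391% with PROG, and 0.957% higher with DEX. JAK2, the kinase bound to cytokine receptors, had 7.77, 8.27 and 8.16 with MPA, 7.86, 7.97 and 7.81 with PROG, 7.22, 7.31 and 7.40 with DHT and 7.42, 7.42 and 7.32 with DEX, against 7.10, 7.07 and 7.06 with vehicle. The MPA and PROG arrays were above all others, and the share of all named probe sets with this order was not counted. Against vehicle alone, arrays did not overlap for 19.1% of all named probe sets with MPA and 15.5% with PROG. The change of JAK2 was 0.99 ± 0.097 with MPA (adjusted p = 1.07e-05) and 0.80 ± 0.097 with PROG (adjusted p = 1.47e-04). Its 0.23 ± 0.097 with DHT and 0.31 ± 0.097 with DEX were not called (adjusted p = 0.444 and 0.216). IL6R, the receptor of interleukin-6 and not of LIF, rose with MPA (0.57 ± 0.062), PROG (0.40 ± 0.062) and DEX (0.53 ± 0.062, adjusted p = 3.50e-04), and its 0.21 ± 0.062 with DHT was not called (adjusted p = 0.168). CISH, a suppressor of cytokine signalling, fell with MPA by 0.34 on the log2 scale (SE 0.043, adjusted p = 1.45e-04). It was also lower in value with DHT (-0.16 ± 0.043, adjusted p = 0.140) and DEX (-0.12 ± 0.043, adjusted p = 0.295), neither of them called. Its change with PROG, -0.19 ± 0.043, was called with an adjusted p of 0.0316, which ended without any 1 of vehicle 1, vehicle 2, vehicle 3, PROG 1 and PROG 2 (adjusted p = 0.0553 to 0.142).

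Beside the counts that follow, 4.11% of all named probe sets were called higher with MPA and 2.43% with PROG. Of 12 measured genes of prostaglandin synthesis and response, 5 were above the array medians. Of the 12, HPGD, the enzyme that inactivates prostaglandins, rose with MPA by 0.63 ± 0.066 (adjusted p = 2.08e-05) and with PROG by 0.30 ± 0.066 (adjusted p = 0.0250). The PROG call ended without vehicle 1, vehicle 2, PROG 1 or PROG 2 (adjusted p = 0.0707 to 0.122). Its values with DHT and DEX were 0.24 ± 0.066 and -0.09 ± 0.066, and MPA exceeded DEX by 0.72 ± 0.066 (adjusted p = 1.02e-05). Of 8 partners of the chemokines and of ICAM1, 5 of them above the array medians, 3 rose with MPA and 1 with PROG. EZR, the membrane linker ezrin, which binds ICAM1, rose by 0.30 ± 0.047 with MPA and 0.24 ± 0.047 with PROG (adjusted p = 9.23e-04 and 0.00899), the second until PROG 2 was left out (adjusted p = 0.0549). The other 2, moesin (MSN, 0.27 ± 0.065) and the dim CXCL8 receptor CXCR1 (0.30 ± 0.074, to a mean of 3.68), lost their MPA calls without any 1 of 4 arrays each (adjusted p = 0.0689 to 0.126).

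Of 10 measured genes listed as steroid-induced inhibitors of inflammation, 7 rose and 1 fell with MPA, 5 rose and 1 fell with PROG, 1 rose with DHT and 2 rose with DEX. The list was assembled from known steroid targets, so its direction is no independent evidence. KLF6, a zinc finger transcription factor, rose with MPA (0.53 ± 0.053) and PROG (0.42 ± 0.053), was at 0.24 ± 0.053 with DEX (adjusted p = 0.0504) and at 0.00 with DHT. DUSP1, a phosphatase that switches off MAP kinases, rose with MPA (0.49 ± 0.060) and DEX (0.51 ± 0.060, adjusted p = 3.50e-04). KLF4 rose with MPA (0.52 ± 0.064, adjusted p = 8.33e-05) and PROG (0.37 ± 0.064, adjusted p = 0.00366). ANXA1 also rose with MPA (0.42 ± 0.054, adjusted p = 1.35e-04) and PROG (0.33 ± 0.054, adjusted p = 0.00243). The calls of KLF4 and ANXA1 held without each of the 15 arrays, and neither gene was called with DHT or DEX. CRISPLD2, a secreted protein that binds lipopolysaccharide, went against the list name and fell by 0.53 on the log2 scale with MPA (SE 0.060, adjusted p = 4.17e-05). FKBP5, which rose with all 4 compounds, is a co-chaperone of steroid receptors rather than an inhibitor of inflammation. It rose by 2.16 with MPA, 1.85 with PROG, 0.93 with DHT and 1.26 with DEX (SE 0.13 each). Its vehicle arrays were at 4.48, 4.43 and 3.83. The DHT call of the list is that of FKBP5, lost in 1 other setting (limma adjusted p = 0.103), and the DEX calls are those of DUSP1 and FKBP5. SGK1, called with MPA and PROG, was dim in all 5 groups, and with MPA its call ended without vehicle 1, MPA 2 or MPA 3 (adjusted p = 0.0568 to 0.0939), as did that of the protease inhibitor SLPI (0.29 ± 0.069, adjusted p = 0.0205, and 0.0542 to 0.0984 without one of these arrays). The call of CRISPLD2 with PROG (-0.25 ± 0.060, adjusted p = 0.0375) ended without any 1 of 8 arrays (adjusted p = 0.0516 to 0.181). None of the pathway genes called against vehicle was called between MPA and PROG. For ZC3H12A that difference was 0.30 ± 0.059 (adjusted p = 0.0559) and for JAK2 0.19 ± 0.097 (adjusted p = 0.645).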

How the data were processed

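Total RNA of ZR-75-1 cells, 15 samples, was amplified, labelled with biotin and hybridised to Affymetrix arrays, per the labels' protocols. The deposited table holds log2 values of 34878 probe sets with 2 decimals, made with RMA and Partek per the submitters' processing notes, which give no version, setting or build. RMA forces a like distribution on arrays, so it would hide a shift shared by most genes, and it can shrink differences near background.

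Groups and replicate numbers came from the sample titles. The platform annotation pairs 14841 probe sets (14361 genes) with 1 symbol, updated through RefSeq, and 20037 are unnamed here. Values were used as deposited, without a filter. limma 3.58.1 in R 4.3.3 (lmFit, eBayes) fitted 5 group means over 15 arrays (10 residual and 3.81 prior degrees of freedom), with 4 contrasts against vehicle, 6 between compounds and a moderated F test, 2-sided, Benjamini-Hochberg adjusted within each over all named probe sets, threshold 0.05. All adjusted p come from limma. The code was tested on simulated data. Where a listed gene has several probe sets, the one with the highest mean was used.

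Named genes are the 10 members, up to 4 called genes of each of 9 lists by the smallest F-test p, and the 3 genes most correlated with a member called by the F test. SGK1, SLPI, IER3, KLF4 and ANXA1 were added after their values were seen. The members and lists were chosen with earlier results of these data known. The alternatives were another gene family, a filter on dim probe sets, a replicate block, fits of 2 groups, quantile normalization, median centring, another variance model, means of probe sets and leaving out each array.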

Additional observations from a re-analysis of the deposited data

How the results depend on the processing

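Leaving out each of the 15 arrays in turn and 8 other settings were tried for 58 differences of members and 40 pathway calls. Of 1308 values for members, 1250 kept their direction and their side of the threshold, 20 were no longer called, 8 became called and 30 turned their sign, all of the 30 of uncalled differences. Of 917 values for pathway genes 824 held, 93 were no longer called and 0 turned. The number of members called with MPA against vehicle was 1 in place of 2 with all probe sets as the family, with the replicate block and with arrays centred on their median, 0 with only the 2 groups in the fit, and 1 to 2 without 1 array. LIF was the call lost in the first 3 settings (adjusted p = 0.0668, 0.0577 and 0.0580), and both were lost in the 2-group fit (0.180 for LIF and 0.0528 for NFKB1), which has fewer arrays. Between compounds the number was 2 in place of 1 with the filter on dim probe sets, quantile normalization, and eBayes with trend and robust, where NFKB1 between MPA and DEX was added (adjusted p = 0.0288, 0.0403 and 0.0240). It was 0 with only the 2 groups, and 0 to 4 without 1 array. The F test called 0 members in place of 1 with all probe sets as the family and with the replicate block, and 0 to 1 without 1 array. Called pathway genes with PROG were 7 in place of 14 with only the 2 groups and 8 to 15 without 1 array. With DHT they were 2 in place of 1 with the dim filter and with eBayes with trend and robust, 0 with only the 2 groups, and 1 to 2 without 1 array. They were 17 to 21 with MPA and 3 to 5 with DEX without 1 array. Across all the settings they ran from 15 to 27 with MPA, from 7 to 18 with PROG and from 3 to 6 with DEX. The causes of these changes were not tested. With the filter ICAM1, CXCL8, CCL20, PTGS2 and TRAF1 give no value.

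Same-numbered arrays did not deviate together (30 pairs, r = -0.054 to 0.067, and 4 of 15 arrays correlated best with their own number). The main fit did not pair them, but a lack of shared deviation cannot settle whether they were handled together. The replicate block moved the pathway calls to 20 with MPA and 12 with PROG. Small uncalled differences turned their sign. IRF1 with MPA was -0.0018 with quantile normalization, and ICAM1 with MPA was -0.0033 with centring. Without 1 array, the log2 difference from vehicle ran between these ends. With MPA it was -0.018 to 0.047 for IRF1, -0.032 to 0.083 for ICAM1 and -0.0050 to 0.065 for TRAF1. With PROG it was -0.080 to 0.047 for NFKB2, -0.063 to 0.062 for IRF1, -0.077 to 0.038 for CXCL8 and -0.058 to 0.027 for CCL20. With DHT it was -0.042 to 0.015 for NFKB1, -0.035 to 0.070 for RELB and -0.042 to 0.098 for LIF. With DEX it was -0.043 to 0.017 for IRF1, -0.027 to 0.043 for ICAM1, -0.042 to 0.058 for CXCL8 and -0.017 to 0.027 for PTGS2. LIF ran from -0.017 to 0.17 between MPA and DEX and from -0.12 to 0.025 between PROG and DEX. With 3 arrays a group and signals near background, small changes of ICAM1, CXCL8, CCL20, PTGS2 and TRAF1 are beyond these data.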
